A study of Mus musculus with 8 samples.

Results

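LSD1, the product of Kdm1a, is a histone demethylase that removes methyl groups from lysine 4 of histone H3 and thereby shuts down genes. It works inside the CoREST complex, in which an Rcor protein ties LSD1 to the histone deacetylases Hdac1 and Hdac2, and the repressor REST recruits this complex to neuronal genes in cells that are not neurons. Neurons also make LSD1 from a transcript with a short additional exon, and in human neuronal cells the protein with that insert was found with supervillin, the product of Svil. The 10 genes described here are Kdm1a, the 3 CoREST scaffolds Rcor1, Rcor2 and Rcor3, the deacetylases Hdac1 and Hdac2, the histone reader Phf21a, the DNA-bending subunit gene Hmg20b, Rest and Svil. They were chosen by name as subunits or known partners of LSD1, and they are 10 of the 20793 rows of the expression table.

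RNA was sequenced in 8 libraries of brain neural progenitors from mice of the strain FvB/C57BL/6. The 4 differentiating libraries came from cells kept for 5 days in neurobasal medium with B27, and the 4 proliferating libraries from cells in N2 medium with EGF and bFGF at 20 ng/ml. The differentiating libraries were FUBP1-targeted (named FUBP1-D), CIC-targeted (CIC-D) and non-targeted (NT; named 7 and GFP-D). The proliferating libraries were FUBP1-targeted (FUBP1), CIC-targeted (CIC) and non-targeted (TRC and GFP). FUBP1 binds single-stranded DNA and RNA and acts on both transcription and splicing, and CIC represses transcription. The protocol describes lentiviral hairpins against FUBP1 and puromycin selection for 3 days, and the title of the study names FUBP1, LSD1 splicing and terminal differentiation. Each targeted group thus had 1 library per state and each NT group had 2. The labels do not say whether the NT libraries were separate cultures, so p-values reflect the spread from library to library only, part of which may be technical. Values are FPKM, fragment numbers scaled by transcript length and library size, which allow levels to be compared between genes.

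The targeted genes and the cell type markers were read in every library. Fubp1 stood at 21.6 FPKM in FUBP1-D and 34.8 FPKM in the library labelled FUBP1, against 24.8 FPKM in 7, 25.4 FPKM in GFP-D, 50.2 FPKM in TRC and 12.4 FPKM in GFP. Its lowest value was thus in an NT library, so the FUBP1 libraries are described by their label alone. Whether the labels FUBP1 and GFP are right was not tested, and every FUBP1 value set against NT below depends on them. The CIC comparison with NT and the contrast within NT also use GFP as an NT library, so they depend on its label too. Cic stood at 25.6 FPKM in CIC-D and 13.3 FPKM in CIC, the lowest library of each state, against 33.8 to 42.0 FPKM in the 4 NT libraries. The 6 proliferation markers summed to 62.4 to 101 FPKM in differentiating libraries and 423 to 908 FPKM in proliferating ones. The 6 astrocyte markers summed to 601 to 861 FPKM in differentiating libraries and 154 to 254 FPKM in proliferating ones, mostly Slc1a3, Aqp4 and Aldh1l1. Of these 6, Gfap, Aqp4 and Slc1a3 rose, Aldh1l1, S100b and Aldoc did not pass, and the ranges of Gfap overlapped between states. Olig2, a marker of the oligodendrocyte lineage, fell, to 88.0 to 180 FPKM in differentiating, against 281 to 397 FPKM in proliferating libraries. Of the progenitor markers Fabp7 fell, to 98.9 to 619 FPKM in differentiating, against 1002 to 2493 FPKM in proliferating libraries, and Nes, Sox2, Pax6 and Vim did not pass. The 7 neuron markers summed to 38.7 to 63.7 FPKM in differentiating and 28.6 to 58.8 FPKM in proliferating libraries, most of it Map2. Dcx, Rbfox3 and Snap25 stayed at or near 0. Of the 4 tested, Tubb3 rose (means 1.92 against 0.137 FPKM), and Map2, Syp (0.959 against 0.391 FPKM) and Stmn2 did not pass. Tubb3 and Syp reached 1 FPKM in differentiating libraries alone, so their lead was built in by the filter on low values. Stmn2 reached 10.8 FPKM in FUBP1-D and 5.10 FPKM in GFP. The markers of microglia, endothelium and muscle each summed to under 2 FPKM in every library, and those of mesenchyme reached 6.49 FPKM in GFP-D.

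The exon that separates neuronal LSD1 from the common form is shown here because it is the subject of the study's title, and because a value for the whole gene does not show its use. In the mouse annotation GENCODE M21 (build GRCm38, not the mm9 build of the table) it is exon 7 of transcript Kdm1a-208, at chr4:136563438-136563449 on the minus strand. It spans 12 bases, or 4 codons, between coding exons of Kdm1a, and 1 of the 9 annotated Kdm1a transcripts holds it. The sequences below run 5′ to 3′ along the transcript with 30 bases on each side. Capitals mark the exon in the first and the last and first base on either side of the splice junction in the second.
Kdm1a with the exon: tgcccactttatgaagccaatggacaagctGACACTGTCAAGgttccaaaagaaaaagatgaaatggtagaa
Kdm1a without the exon: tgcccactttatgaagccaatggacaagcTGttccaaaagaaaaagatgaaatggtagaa
The table has 1 Kdm1a value per library, under a transcript accession that GENCODE pairs with a form lacking the exon, so the use of the exon was not measured here.

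Across the 8 libraries Kdm1a transcript differed little, while its partners moved in both directions with differentiation. Of the 10 genes, Phf21a and Svil rose and Rcor1, Hdac1 and Hdac2 fell in differentiating libraries (limma, adjusted p under 0.05). Kdm1a, Rcor2, Rcor3, Hmg20b and Rest did not pass the test. Over all 11968 rows tested, 38.8% were called, 21.2% higher and 17.7% lower in differentiating libraries, so 5 of 10 is close to that background. The median change of the 10 genes was 0.12 on the log2(FPKM + 1) scale, against 0.09 for all rows. The states did not overlap for 6 of the 10 genes, the 5 called ones and Rest, against 38% of all rows (20.1% higher and 17.8% lower in differentiating libraries). Bulk RNA cannot tell fewer cells of a type from less RNA per cell, and the lower proliferation markers, Olig2 and Fabp7 and the higher Gfap, Aqp4 and Slc1a3 of the differentiating libraries went along with every change below. Their part in these changes was not tested.

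**Figure D1:**
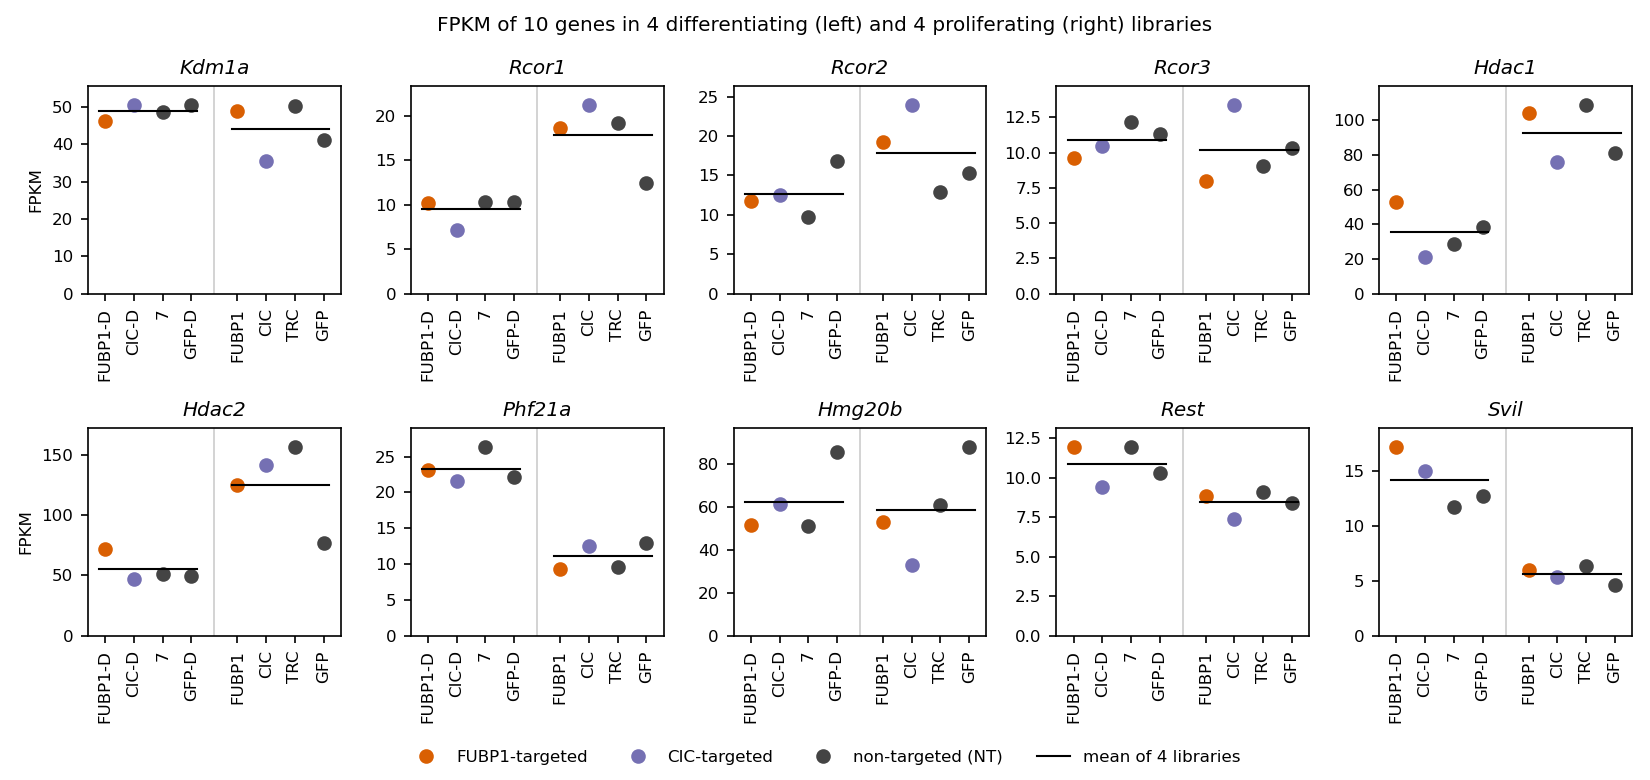
FPKM of each of the 10 genes (vertical axes, each from 0) in the 4 differentiating libraries (left in each panel) and the 4 proliferating libraries (right); points are single libraries, coloured by label, and lines are means of 4 libraries. Hdac1, Hdac2 and Rcor1 lie lower in every differentiating library, Phf21a, Svil and Rest lie higher, and the other 4 genes overlap between states.

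Kdm1a, the catalytic subunit (chromosome 4, 136106448 to 136158638, mm9), held 46.3 FPKM in FUBP1-D, 50.5 FPKM in CIC-D, 48.8 FPKM in 7 and 50.6 FPKM in GFP-D. The proliferating libraries held 49.0 FPKM in FUBP1, 35.6 FPKM in CIC, 50.3 FPKM in TRC and 41.2 FPKM in GFP. The differentiating libraries lay close together, and 2 of the proliferating ones, FUBP1 and TRC, lay within their range. The means were 49.1 ± 1.99 FPKM in differentiating and 44.0 ± 6.88 FPKM in proliferating libraries (SD, n = 4 each). The change of 0.17 ± 0.16 (SE) in log2(FPKM + 1) had a limma adjusted p of 0.447 and a 95% interval of -0.22 to 0.55, which does not reach a doubling or a halving. Over all 8 libraries its coefficient of variation was 11.6%, against 16.5% to 52.6% for the 9 other genes.

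The Rcor scaffolds bridge LSD1 to the deacetylases and to nucleosomes, and Rcor1 is the CoREST protein first found with REST. Rcor1 (chromosome 12, 112278009 to 112351597) held 10.2 FPKM in FUBP1-D, 7.17 FPKM in CIC-D, 10.3 FPKM in 7 and 10.2 FPKM in GFP-D. The proliferating libraries held 18.6 FPKM in FUBP1, 21.2 FPKM in CIC, 19.2 FPKM in TRC and 12.4 FPKM in GFP. All differentiating libraries were below all proliferating ones, with GFP nearest to them. A GENCODE gene model on the same strand, Gm48632, overlaps an Rcor1 exon, and their reads cannot be told apart. The change was -0.84 ± 0.23 (limma adjusted p = 0.0246). The call was lost without FUBP1-D, CIC-D, TRC, FUBP1 or CIC and in a block by shared library name (limma adjusted p = 0.0641), whereas the direction held. Omitting FUBP1-D or FUBP1 gave the same change, as did omitting CIC-D or CIC, so these omissions are not separate checks.

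Rcor2, a CoREST paralog known from progenitors and stem cells, held 11.7, 12.5, 9.71 and 16.9 FPKM in FUBP1-D, CIC-D, 7 and GFP-D. The proliferating values were 19.3, 23.9, 12.9 and 15.4 FPKM in FUBP1, CIC, TRC and GFP. GFP-D lay above TRC and GFP, so the states overlapped, and the change of -0.45 ± 0.24 did not pass (limma adjusted p = 0.166). Rcor3, the remaining paralog, ranged from 9.59 to 12.1 FPKM in differentiating and from 8.00 to 13.4 FPKM in proliferating libraries. Its change was 0.11 ± 0.18 (limma adjusted p = 0.669), and exons of annotated antisense transcripts overlap Rcor3, whose reads cannot be told apart without strand.

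As the scaffolds moved unequally, their proportions differed between states. Rcor1 made up 28.7 ± 4.14% of the summed Rcor FPKM in differentiating and 39.0 ± 6.07% in proliferating libraries (SD, n = 4 each), a share that ran from 23.8% to 32.3% in differentiating and from 32.6% to 46.7% in proliferating libraries. Rcor3 made up 29.4% to 37.8% in differentiating and 17.4% to 27.0% in proliferating libraries. Neither share overlapped between states, while the Rcor2 share was 38.2 ± 5.98% in differentiating and 38.6 ± 4.92% in proliferating libraries. The scaffolds together summed to 33.0 ± 3.71 FPKM in differentiating and 45.9 ± 9.01 FPKM in proliferating libraries. Per unit of Kdm1a this was 0.596 to 0.760 in differentiating and 0.818 to 1.64 in proliferating libraries. These proportions are descriptions of transcripts, given without a test, and say nothing of protein amounts.

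Hdac1 and Hdac2 remove acetyl groups from histone tails and serve the CoREST, NuRD and Sin3 complexes alike. Hdac1 (chromosome 4, 129193348 to 129219890) held 52.9 FPKM in FUBP1-D, 21.2 FPKM in CIC-D, 28.6 FPKM in 7 and 38.6 FPKM in GFP-D. The proliferating libraries held 104 FPKM in FUBP1, 76.0 FPKM in CIC, 109 FPKM in TRC and 81.3 FPKM in GFP. Every differentiating library lay below every proliferating one, and within both states the CIC-labelled library was the lowest. The differentiating mean was 35.3 ± 13.7 FPKM, or 38.2% of the proliferating mean of 92.5 ± 16.2 FPKM (SD, n = 4 each). The change of -1.43 ± 0.20 was the largest of the 10 genes (limma adjusted p = 0.00264).

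Hdac2 (chromosome 10, 36694350 to 36721694) held 72.0 FPKM in FUBP1-D, 46.9 FPKM in CIC-D, 51.4 FPKM in 7 and 49.3 FPKM in GFP-D. The proliferating libraries held 125 FPKM in FUBP1, 142 FPKM in CIC, 156 FPKM in TRC and 76.6 FPKM in GFP. The states did not overlap, but GFP came within 5 FPKM of FUBP1-D. The change was -1.14 ± 0.25 (limma adjusted p = 0.0117). FUBP1-D had the highest Hdac1 and Hdac2 of the differentiating libraries and also the highest sum of proliferation markers, 101 FPKM, against 62.4 to 65.5 FPKM in the other 3. GFP had the lowest Hdac2 of the proliferating libraries and a sum of proliferation markers of 462 FPKM, against 423 FPKM in CIC and over 900 FPKM in FUBP1 and TRC. The part of proliferation in these values was not tested.

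The balance between the deacetylases changed less than their sum. Hdac1 made up 38.3 ± 5.95% of the summed Hdac1 and Hdac2 FPKM in differentiating and 43.2 ± 6.99% in proliferating libraries, with overlapping ranges. The sum was 68.1 to 125 FPKM in differentiating and 158 to 265 FPKM in proliferating libraries. Per unit of Kdm1a it was 1.35 to 2.70 in differentiating and 3.83 to 6.11 in proliferating libraries.

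**Figure D2:**
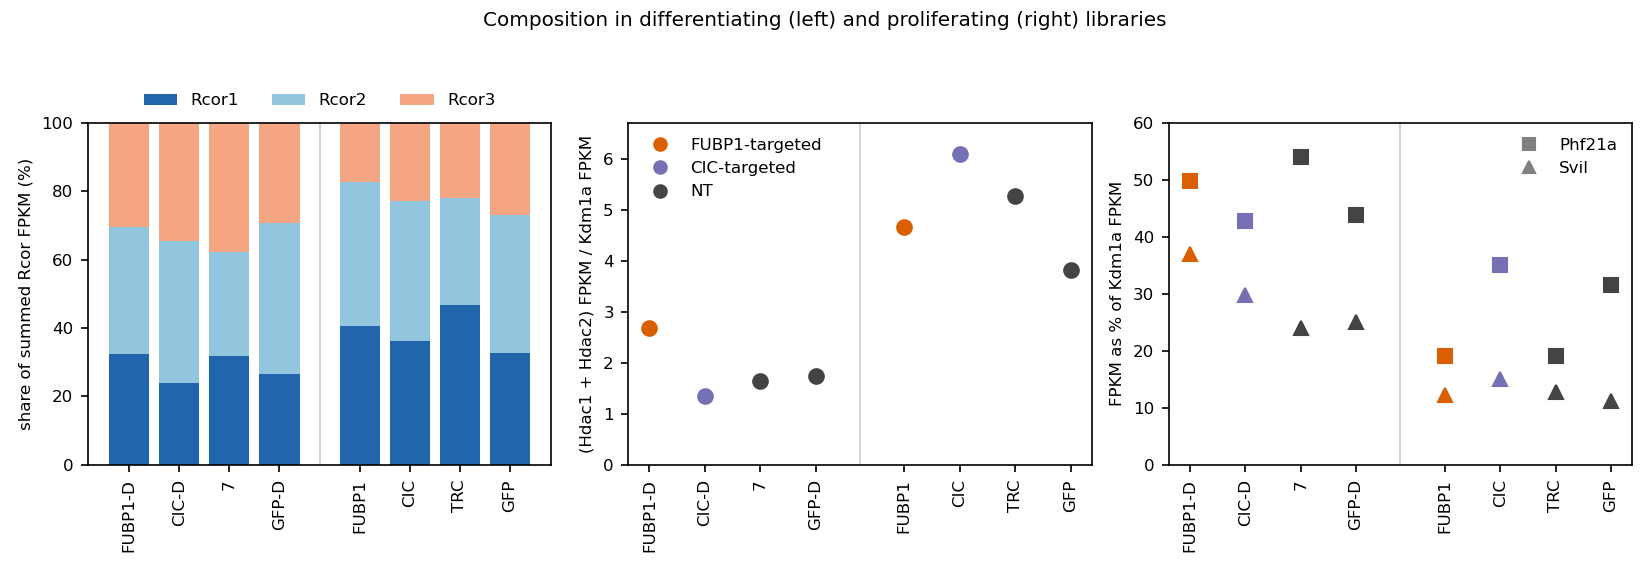
Left, share of the summed Rcor FPKM held by each scaffold (percent, bars) in each library. Middle, Hdac1 plus Hdac2 FPKM per unit of Kdm1a FPKM. Right, Phf21a (squares) and Svil (triangles) FPKM as a percentage of Kdm1a FPKM. Differentiating libraries are left and proliferating ones right in each panel, and each point or bar is 1 library. The deacetylase ratio is at most 2.70 in differentiating and at least 3.83 in proliferating libraries.

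Phf21a, also called BHC80, binds histone H3 whose lysine 4 carries no methyl group, the product of LSD1. It held (chromosome 2, 92024339 to 92204823) 23.1 FPKM in FUBP1-D, 21.6 FPKM in CIC-D, 26.4 FPKM in 7 and 22.2 FPKM in GFP-D. The proliferating libraries held 9.36 FPKM in FUBP1, 12.5 FPKM in CIC, 9.56 FPKM in TRC and 13.0 FPKM in GFP. The states were far apart relative to the spread within each, and the change was 1.01 ± 0.18 (limma adjusted p = 0.00559). As a share of Kdm1a it was 42.8% to 54.0% in differentiating and 19.0% to 35.1% in proliferating libraries.

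Hmg20b, also called BRAF35, is an HMG-box subunit of the same complex and, with Rcor2, the most variable of the genes that did not pass. Its values were 51.6, 61.3, 51.1 and 85.8 FPKM in FUBP1-D, CIC-D, 7 and GFP-D, against 52.8, 32.7, 61.1 and 88.0 FPKM in FUBP1, CIC, TRC and GFP. GFP-D and GFP, which share a name across states, were the highest library of each state, and CIC was the lowest of all. The change was 0.14 ± 0.27 (limma adjusted p = 0.698).

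Rest binds the regulatory elements of neuronal genes and brings in CoREST. It held 11.94, 9.41, 11.95 and 10.3 FPKM in FUBP1-D, CIC-D, 7 and GFP-D, against 8.87, 7.40, 9.07 and 8.39 FPKM in FUBP1, CIC, TRC and GFP. All differentiating libraries were above all proliferating ones by a narrow margin, and the change of 0.33 ± 0.16 did not pass (limma adjusted p = 0.136, 95% interval -0.04 to 0.71).

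Svil encodes supervillin, a membrane-bound actin-binding protein, and was the partner with the largest rise. It held (chromosome 18, 5046587 to 5119291) 17.2 FPKM in FUBP1-D, 15.0 FPKM in CIC-D, 11.7 FPKM in 7 and 12.7 FPKM in GFP-D. The proliferating libraries held 5.96 FPKM in FUBP1, 5.34 FPKM in CIC, 6.37 FPKM in TRC and 4.61 FPKM in GFP. No library of a state came near the other state, and the change was 1.20 ± 0.18 (limma adjusted p = 0.00325). As a share of Kdm1a it was 24.0% to 37.1% in differentiating and 11.2% to 15.0% in proliferating libraries. Svil is also high in muscle, and 4 muscle markers summed to 0.165 to 1.08 FPKM in differentiating and 0.0796 to 0.384 FPKM in proliferating libraries.

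**Figure D3:**
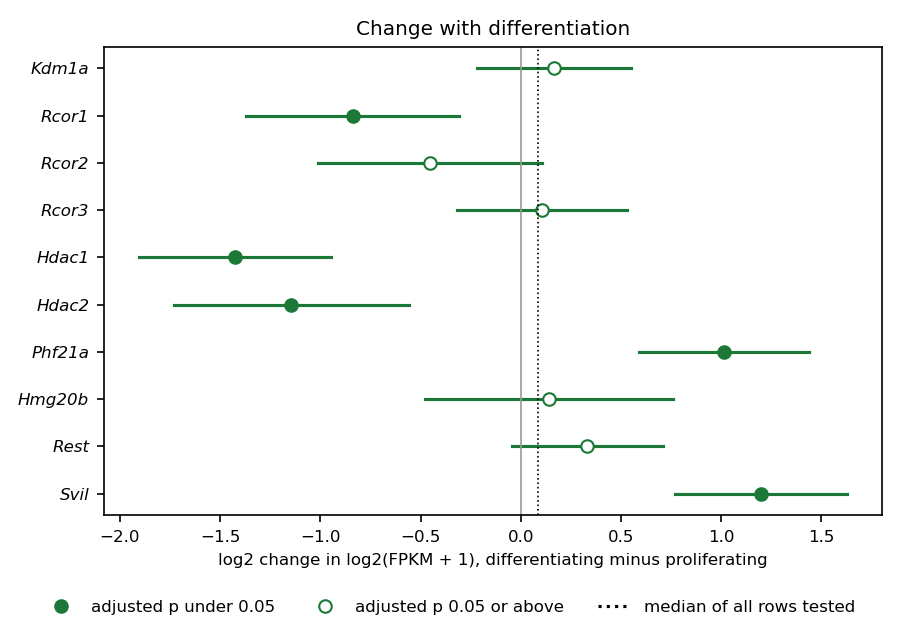
Change of each gene in log2(FPKM + 1), differentiating minus proliferating (horizontal axis), with its 95% interval from limma; filled points passed an adjusted p of 0.05, and the dotted line is the median of all rows tested. Phf21a and Svil lie right of 0, Hdac1, Hdac2 and Rcor1 lie left of it, and the interval of Kdm1a spans 0.

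The order of the levels also differed. In differentiating libraries the mean FPKM ran from Hmg20b (62.4) over Hdac2 (54.9), Kdm1a (49.1), Hdac1 (35.3), Phf21a (23.3), Svil (14.1), Rcor2 (12.7), Rest (10.9) and Rcor3 (10.9) to Rcor1 (9.46). Among neighbours in that order, Phf21a and Svil were the pair whose ranges did not overlap. In proliferating libraries it ran from Hdac2 (125) over Hdac1 (92.5), Hmg20b (58.7), Kdm1a (44.0), Rcor2 (17.9), Rcor1 (17.9), Phf21a (11.1), Rcor3 (10.2) and Rest (8.43) to Svil (5.57). There the gaps between Kdm1a and the Rcor scaffolds and between Rest and Svil were wider than the ranges. Rcor1 thus had the lowest mean of the 10 in differentiating libraries, and Svil in proliferating ones.

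In the NT libraries alone, 2 against 2, the 5 called genes moved in the same directions. That was fixed in advance and adds no support, because the states did not overlap for these genes over all libraries. The changes were -1.47 for Hdac1 (limma adjusted p = 0.0730), 1.05 for Phf21a (0.114), 1.04 for Svil (0.119), -1.11 for Hdac2 (0.164) and -0.55 for Rcor1 (0.319). None of the 10 genes passed there, where 175 of 11968 rows (1.46%) were called and the fit had 2 residual degrees of freedom. At an unadjusted p under 0.05 there were 3123 rows. Hmg20b changed by -0.15 within NT, opposite in sign to the value over all arms, and neither value passed.

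The FUBP1 label was then compared with NT over both states, the question raised by the study's title, at the level of whole genes. None of the 10 genes passed, and over all 11968 rows 0 were called (0%), with 256 at an unadjusted p under 0.05. Kdm1a held 46.3 FPKM in FUBP1-D, below 48.8 FPKM in 7 and 50.6 FPKM in GFP-D. In the proliferating state it held 49.0 FPKM in FUBP1, between 50.3 FPKM in TRC and 41.2 FPKM in GFP. Its difference was 0.0019 with a 95% interval of -0.47 to 0.47, so differences of under about 0.5 in either direction remain within that interval. Hmg20b had the largest difference, -0.41 (interval -1.17 to 0.35), followed by Hdac1 with 0.40 (-0.19 to 0.98) and Hdac2 with 0.35 (-0.37 to 1.07). The limma adjusted p was 0.999 for each of the 10.

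By position, Rcor3 was the gene that lay below both NT libraries in both states under the FUBP1 label. It held 9.59 FPKM in FUBP1-D against 12.1 and 11.3 FPKM in 7 and GFP-D, and 8.00 FPKM in FUBP1 against 9.02 and 10.3 FPKM in TRC and GFP. Of all rows, 9.33% lay below both NT libraries in both states and 11% above them, so 1 of 10 is near that background. In the differentiating state Hdac1, Hdac2 and Svil were higher in FUBP1-D than in either NT library. Kdm1a, Rcor1 and Rcor3 were lower there than in both, and the other 4 genes lay between the NT libraries. The share of all rows in such positions within a single state was not computed, so no effect of the label is read from them. For Rcor1 the gap to the nearest NT library was under 0.1 FPKM. The test of whether the FUBP1 difference itself changed with state called 0 of the 10 and 0 of all rows, with 99 rows at an unadjusted p under 0.05.

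The CIC label, which the study carried beside FUBP1, also gave no call among the 10 genes, while 13 of 11968 rows (0.109%) were called and 1368 had an unadjusted p under 0.05. Hmg20b differed by -0.62 (95% interval -1.38 to 0.13, limma adjusted p = 0.489) and Hdac1 by -0.47 (-1.05 to 0.12, 0.501). Kdm1a differed by -0.16 (-0.63 to 0.31, 0.783). That value joined a proliferating CIC library at 35.6 FPKM, below TRC and GFP at 50.3 and 41.2 FPKM, to a differentiating one at 50.5 FPKM, between 7 and GFP-D at 48.8 and 50.6 FPKM. Hdac1 and Rest lay below both NT libraries in both states, as did 17.7% of all rows. Rcor1 was higher than NT in CIC and lower than NT in CIC-D. The test of a difference between states called none of the 10 and 0 of all rows, with 512 rows at an unadjusted p under 0.05. The FUBP1 and CIC comparisons share their NT libraries.

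**Figure D4:**
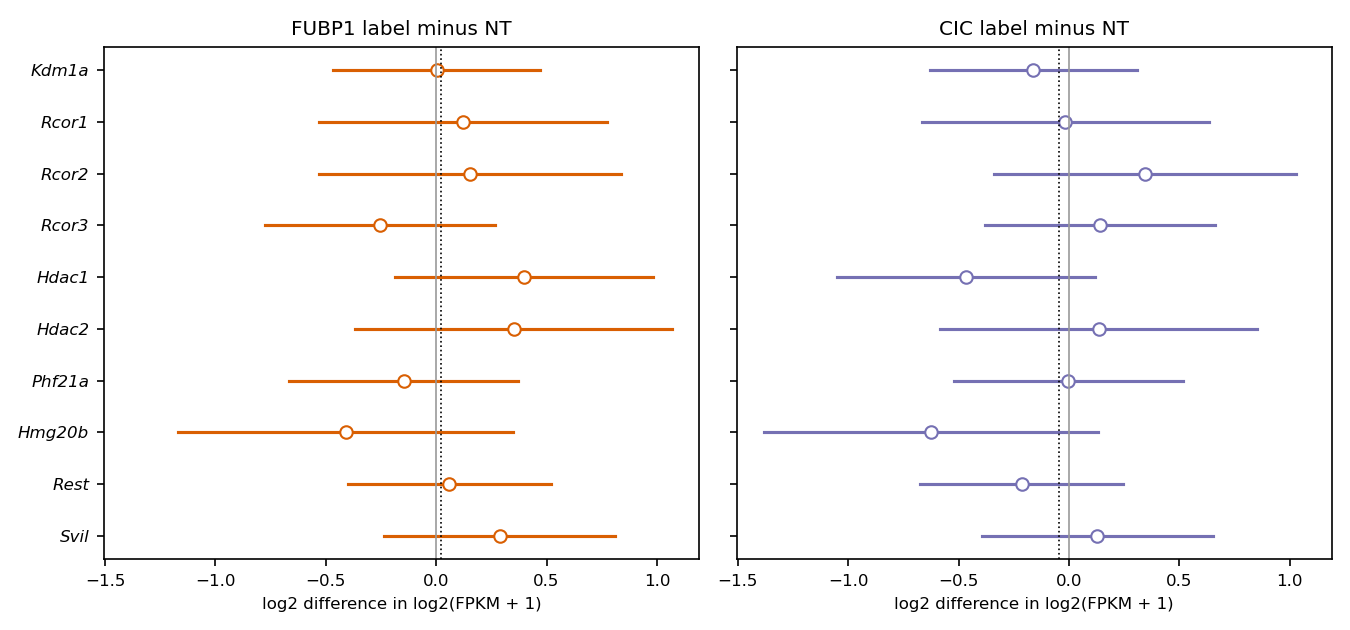
Difference of each gene in log2(FPKM + 1) between FUBP1-labelled and NT libraries (left) and CIC-labelled and NT libraries (right), over both states, with 95% intervals from limma; dotted lines are the medians of all rows tested. Every interval spans 0.

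Other genes of the same chromatin machinery were read from lists. Of 14 relatives and associates of LSD1, 11 passed the filter on low values, 1 rose and 1 fell with differentiation, with a median change of 0.08. That is 2 of 11 called, against 38.8% of all rows. Zmym3, a zinc finger subunit of LSD1 complexes, held 25.3 ± 3.30 FPKM in differentiating and 16.6 ± 1.11 FPKM in proliferating libraries (0.57, limma adjusted p = 0.0221). Ctbp1, a corepressor that binds LSD1, held 64.7 ± 6.08 FPKM in differentiating and 97.4 ± 16.8 FPKM in proliferating libraries (-0.57, 0.0300). Both calls were lost without any 1 of FUBP1-D, CIC-D, 7, GFP-D, FUBP1 or CIC, and that of Ctbp1 also without TRC, with adjusted p up to 0.0964. Zeb1 and Ctbp2, the most abundant members without a call, stood at 61.9 and 41.7 FPKM in differentiating and 69.9 and 38.9 FPKM in proliferating libraries.

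The deacetylases also sit in NuRD, Sin3 and MiDAC complexes and in those of the Mier proteins. Of 20 further subunits of these, all measured, 1 rose and 5 fell (median -0.03), against 21.2% of all rows higher and 17.7% lower. Mbd3, a NuRD subunit, held 44.3 ± 13.5 FPKM in differentiating and 116 ± 23.5 FPKM in proliferating libraries (-1.39, limma adjusted p = 0.00443). Sap30 of Sin3 changed by -1.05 (0.0126) and the histone chaperone Rbbp7 by -0.81 (0.0159). Both of these calls were lost without FUBP1-D or FUBP1, with adjusted p up to 0.0769. The 2 others that fell, named here after their values were seen, were Chd3 and Rbbp4, at 6.95 and 67.2 FPKM in differentiating and 12.9 and 99.0 FPKM in proliferating libraries. Mideas, the scaffold of MiDAC, was the one that rose, to 14.6 ± 2.20 FPKM in differentiating, against 6.53 ± 2.69 FPKM in proliferating libraries (1.10, 0.00964). The NuRD remodeller Chd4 and the Sin3 scaffold Sin3b were the most abundant without a call, at 89.2 and 127 FPKM in differentiating and 80.7 and 134 FPKM in proliferating libraries.

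Of 7 genes for class I deacetylases outside these complexes and their partners, 1 rose and none fell (median 0.05), against 38.8% of all rows called. Hdac8 stood at 18.8 ± 4.82 FPKM in differentiating and 6.70 ± 2.48 FPKM in proliferating libraries (1.37, limma adjusted p = 0.00868). Hdac3, the enzyme of the NCoR complex, did not pass, at 50.4 ± 5.77 FPKM in differentiating and 51.6 ± 11.4 FPKM in proliferating libraries. Within the class I enzymes, Hdac1 and Hdac2 were thus lower and Hdac8 higher in every differentiating library than in any proliferating one.

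Of 15 enzymes that write or erase methyl groups on lysines 4 and 9 of histone H3, 4 rose and 1 fell (median 0.25), near the 38.8% of all rows called. Suv39h2, which methylates lysine 9, held 1.10 ± 0.449 FPKM in differentiating and 6.18 ± 2.53 FPKM in proliferating libraries (-1.72, limma adjusted p = 0.00418). Kdm5b, which erases the lysine 4 trimethyl mark that LSD1 cannot remove, held 24.0 ± 5.17 FPKM in differentiating and 11.9 ± 1.17 FPKM in proliferating libraries (0.94, 0.0106). The lysine 4 methyltransferases Kmt2c and Kmt2a rose by 0.86 (0.0214) and 0.71 (0.0169). The call of Kmt2a was lost without 7, FUBP1-D or FUBP1, and that of Kmt2c also without GFP-D or TRC, with adjusted p up to 0.0961. The other that rose, named after its values were seen, was Kdm5a, at 17.0 FPKM in differentiating and 10.2 FPKM in proliferating libraries. Ehmt2 and Kdm5c did not pass.

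REST partners and neuronal genes with a known REST site made up 24 genes, of which 15 passed the filter, 3 were called higher and 1 lower (median 0.25), against 38.8% of all rows called. The REST-recruited phosphatase Ctdsp2 held 165 ± 23.7 FPKM in differentiating and 85.9 ± 25.4 FPKM in proliferating libraries (0.97, limma adjusted p = 0.00987). The call was lost without FUBP1-D or FUBP1 (0.0509 and 0.0515). The other 2 called higher were at low levels. The sodium channel gene Scn2a1 stood at 1.47 ± 0.393 FPKM in differentiating and 0.217 ± 0.0695 FPKM in proliferating libraries, and the neuronal tubulin gene Tubb3 at 1.92 ± 1.53 FPKM in differentiating and 0.137 ± 0.113 FPKM in proliferating ones. Both passed the filter through differentiating libraries alone, so they had to differ, and their calls support nothing. Scn2a1 lost its call without FUBP1-D or FUBP1, and Tubb3 without CIC-D, GFP, TRC, FUBP1 or CIC, with adjusted p up to 0.132. The growth factor gene Bdnf fell to 2.96 ± 1.02 FPKM in differentiating, against 9.89 ± 5.83 FPKM in proliferating libraries (-1.36, 0.0281), a call lost without 7, CIC-D, FUBP1-D, TRC, FUBP1 or CIC. Nefl, a neurofilament gene, was not called and spread widely, at 13.7, 1.25, 7.40 and 0.940 FPKM in FUBP1-D, CIC-D, 7 and GFP-D, against 206, 1.25, 537 and 13.1 FPKM in FUBP1, CIC, TRC and GFP.

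The last list held 11 splicing regulators of the neuronal LSD1 exon and their kin, of which 9 passed the filter, 1 rose and none fell (median -0.01), against 38.8% of all rows called. Nova2, a neuronal splicing factor, held 7.53 ± 1.83 FPKM in differentiating and 4.15 ± 1.71 FPKM in proliferating libraries (0.76, limma adjusted p = 0.0254). Of the 8 libraries, GFP was the one whose omission kept that call. Ptbp1, a repressor of neuronal exons, stood at 85.5 ± 17.0 FPKM in differentiating and 158 ± 53.2 FPKM in proliferating libraries (-0.83, 0.0608). Fubp3, a relative of Fubp1, stood at 31.6 ± 4.95 FPKM in differentiating and 41.4 ± 7.72 FPKM in proliferating libraries, without a call. In the comparisons of FUBP1 or CIC with NT no gene of these 6 lists was called.

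**Figure D5:**
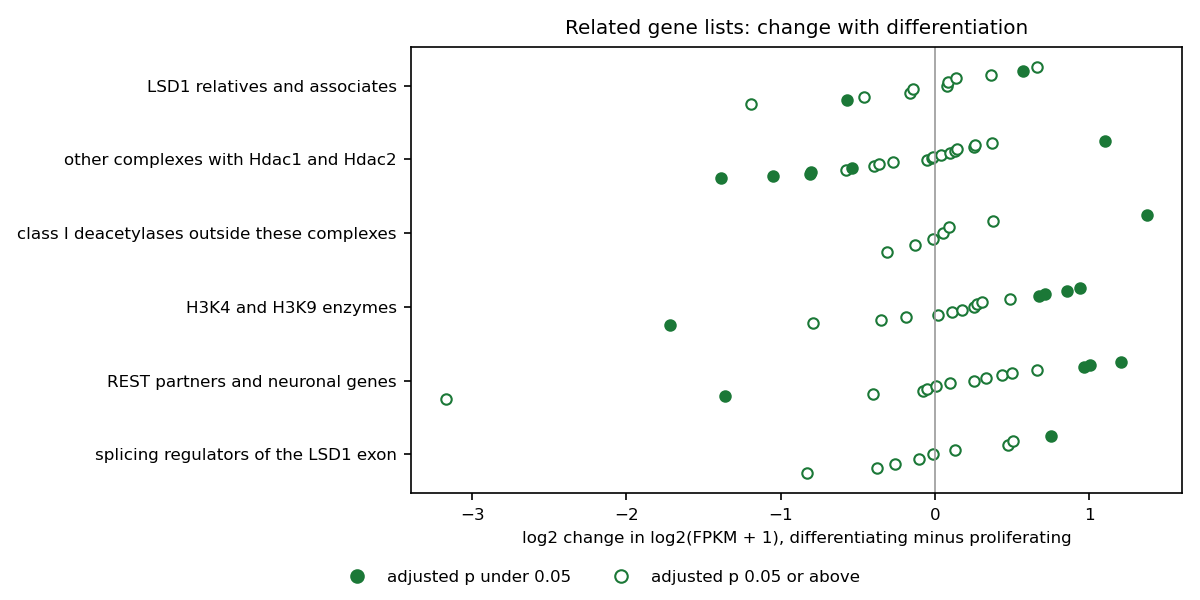
Change in log2(FPKM + 1), differentiating minus proliferating (horizontal axis), of each gene of 6 related lists that passed the filter on low values (rows, spread vertically for legibility); filled points passed an adjusted p of 0.05. Calls lie on both sides of 0 in 4 of the lists, and the point farthest left is Nefl, which was not called.

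Among 9439 rows with a mean of at least 5 FPKM, the profiles most like that of Kdm1a over the 8 libraries were those of Abhd14a, Limk1, Lpin2, Herc3 and Gcnt1 (Pearson r of log2(FPKM + 1) between 0.964 and 0.981, a description over 8 points without a p). Like Kdm1a, each was lowest in CIC and next lowest in GFP. They were picked for likeness over these same 8 libraries, so the shared low values follow from that choice. Abhd14a, for example, held 4.72 FPKM in CIC and 7.38 FPKM in GFP, and 12.4 to 14.4 FPKM in the 6 other libraries.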

How the data were processed

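RNA was measured in 8 libraries. The authors deposited 1 table of FPKM values with 20793 rows (20462 gene symbols). The build was mm9 and the software comprised Cufflinks 2.1.1, TopHat2 2.0.11, cutadapt and bcl2fastq 2.17, per the submitters' processing notes. The order of steps, their settings, the annotation and the use of strand are not given here by any source. Fragment counts are not in the table, so absolute depth is unknown. FPKM sums ran from 426984 (FUBP1-D) to 448571 (CIC-D) in differentiating and from 505977 (CIC) to 541608 (GFP) in proliferating libraries. The sums thus split by state, and the FPKM values and means given for each state were not rescaled for this. Scaling was varied among the alternatives.

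Values were used as log2(FPKM + 1), a scale that understates changes of low genes. The filter kept rows that reached 1 FPKM in 2 libraries or more (11968, all 10 genes among them). Tests ran in R 4.3.3 with limma 3.58.1 (moderated by empirical Bayes with trend, two-sided, Benjamini-Hochberg over all kept rows, threshold 0.05) and were checked on simulated data. The simulation changed 66 or 67 rows of each size among 11968 rows. For the state the data held 4647 called rows, so the adjusted p was stricter in the simulation there. Its recovered numbers are not the power of the tests on these data. Simulated log2 changes of 1 were recovered for 20 of 67 rows for the state, 6 of 67 for FUBP1 and 0 of 67 within NT. For changes of 2 the numbers were 58, 48 and 0 of 66. The absence of a call thus does not show that a gene was unchanged, least of all within NT. For the state, FUBP1 and CIC effects, state and label entered additively over 8 libraries (4 residual degrees of freedom). The contrast within NT and the tests of differences between states came from 6 group means (2 residual degrees of freedom), so single libraries were assumed to vary like NT ones. Alternatives covered pseudocount, filter, scaling, trend, model and omission of libraries. For the additive change with differentiation, omitting either FUBP1-labelled library gives the same estimate, as does omitting either CIC-labelled library. Such omissions are not separate checks.

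Each of the 10 genes was named. From each list the 4 largest called changes and the 2 most abundant genes without a call were named, and exceptions are marked. Older symbols were matched for 5 genes. Members and lists were chosen with earlier results of these data known. Start positions are counted from 1. The Kdm1a exon sequence came from GENCODE M21 (GRCm38), and no coordinates were converted.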

Additional observations from a re-analysis of the deposited data

Results flagged for a closer look

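In the 20 sets of 4 libraries examined (10 genes in each state), 1 value stood apart from its group, and chance alone marks about 1 set in 20. Rcor1 stood at 7.17 FPKM in CIC-D, while the other 3 differentiating libraries lay between 10.2 and 10.3 FPKM. Without CIC-D the change of Rcor1 with differentiation was -0.64, against -0.84 with it (limma adjusted p = 0.0246). The change was also -0.64 without CIC, the highest proliferating library for Rcor1 (21.2 FPKM). Omitting either CIC-labelled library takes both out of the estimate, so the drop cannot be assigned to the CIC-D value. Over its alternatives the adjusted p ranged from 0.00936 to 0.0820.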

How the results depend on the processing

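Phf21a, Svil, Hdac1 and Hdac2 kept their direction and call with differentiation under all 17 alternatives, with changes of 0.82 to 1.11, 0.85 to 1.34, -1.58 to -1.27 and -1.36 to -0.95. Rcor1 kept its direction (-1.03 to -0.64) and lost its call in 6, which are not 6 separate checks, as they include both libraries of the FUBP1 and CIC labels. The number of the 10 genes called was 4 to 5 when each library was left out. The 4647 rows called with differentiation became 2906 with 6 group means and 2482 to 4863 when each library was left out. For CIC the 13 rows called became 35 with a pseudocount of 0.1, 4 with a pseudocount of 5, 2 without the filter on low values, 3 without GFP and GFP-D (an alternative chosen after seeing the data, because Fubp1 was lowest in GFP), and 2 to 18 when each library was left out. Within NT the 175 rows became 0 with a pseudocount of 5, 0 without the filter, 278 with quantile normalization and 0 to 480 when each library was left out. The cause was not tested. The replicate numbers follow accession order and pair no libraries. A replicate block by shared library name, without TRC and 7, called 3554 rows and 4 of the 10 genes, with Rcor1 the one lost (limma adjusted p = 0.0641).

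Of the listed genes named with a call, the block ended those of Zmym3, Ctbp1, Rbbp7, Kmt2c, Kmt2a, Bdnf and Nova2 (limma adjusted p 0.0523 to 0.121). The 6 group means ended those of Zmym3, Ctbp1, Rbbp7, Kmt2a, Tubb3, Scn2a1 and Nova2 (0.0551 to 0.112), and quantile normalization those of Ctbp1, Kmt2c, Tubb3 and Nova2 (0.0505 to 0.0967). Bdnf, Tubb3 and Nova2 lost the call without the filter (0.0517 to 0.0654), Tubb3 with a pseudocount of 5 (0.0651), and Zmym3, Kmt2c and Nova2 without GFP and GFP-D (0.0657 to 0.0686). Values that changed sign were all without a call. Under quantile normalization they were Rcor3 with differentiation (-0.014), Kdm1a for FUBP1 (-0.0094), Phf21a for CIC (0.0098) and Hmg20b within NT (0.029). Under median of ratios scaling they were Kdm1a for FUBP1 (-0.013), Rcor1 for CIC (0.011) and Phf21a for CIC (0.024). Other pseudocounts gave 0.013 for Rcor1 and 0.00087 for Phf21a, both for CIC. Without GFP and GFP-D, Kdm1a, Rcor1 and Rest stood at -0.056, -0.027 and -0.015 for FUBP1, and Phf21a and Hdac2 at 0.039 and -0.13 for CIC. When each library was left out, the ranges that crossed 0 were -0.11 to 0.34 for Hmg20b with differentiation, -0.16 to 0.16 for Kdm1a and -0.055 to 0.18 for Rcor1 under FUBP1, and within NT -0.016 to 0.26 for Kdm1a, -0.49 to 0.25 for Rcor2 and -0.51 to 0.22 for Hmg20b. For CIC they were -0.38 to 0.056 for Kdm1a, -0.42 to 0.39 for Rcor1, -0.15 to 0.43 for Rcor3, -0.18 to 0.18 for Phf21a and -0.15 to 0.42 for Hdac2. Leaving out the single library of a label was not run for that label's difference between states. Unknown depth, single libraries per label and whole-gene values limit what these data can show.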

Other observations

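Srrm4, a splicing factor that promotes neuronal microexons, was among the listed regulators and is named here after its values were seen. It held 0.301, 0.164, 1.03 and 1.15 FPKM in FUBP1-D, CIC-D, 7 and GFP-D, against 0.0733, 0.268, 0.0418 and 0.154 FPKM in FUBP1, CIC, TRC and GFP. Both NT libraries were thus the highest in the differentiating state, and no contrast of Srrm4 was called by limma. Srrm4 passed the filter on low values through 7 and GFP-D alone, so their lead was built in and supports nothing. Values this close to 0 are coarse at unknown depth.

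Kdm5d, the Y-linked relative of Kdm5b and also named after its values were seen, held 2.27, 9.67, 5.38 and 1.45 FPKM in FUBP1-D, CIC-D, 7 and GFP-D, against 4.31, 9.10, 0.981 and 1.19 FPKM in FUBP1, CIC, TRC and GFP. It was highest in CIC-D and CIC and lowest in TRC. GFP-D and GFP, which share a name, also lay under 1.5 FPKM, so low values were not limited to that name.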
